A study of Mus musculus with 18 samples.

Results

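The major urinary protein genes (Mup) and their pseudogenes were followed through 18 libraries of mouse hepatocytes. Members were all genes whose symbol is Mup or Mup-ps followed by digits, in the deposited tables or in the annotation of the same build. There were 43 of them among 37991 genes in the count files, 21 annotated as protein coding and 22 as pseudogenes. The cells were plateable cryopreserved hepatocytes from male CD-1 mice, and total RNA was sequenced. The labels give 6 groups of 3 libraries: an siRNA against Ttr (written siRNA), a REVERSIR of scrambled sequence, a REVERSIR against the Ttr siRNA (TTR REVERSIR), each REVERSIR combined with siRNA, and the PBS control. A REVERSIR is a short oligonucleotide built to pair with the guide strand of an siRNA and so lift its silencing. Doses, times and the origin of the replicates, from separate cultures or not, are unstated in the labels, so p-values here reflect only how much these libraries vary, which may be technical. The study's purpose was control of siRNA activity, and the comparisons ask what each treatment did to transcripts, here those of the Mup genes.

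Major urinary proteins are small secreted lipocalins. The liver makes them in large amounts, they pass into urine, and they carry volatile pheromones in their barrel-shaped binding pocket. Their genes sit in a tandem array whose copies are very alike, and in liver they are known for higher expression in males under pulsed growth hormone acting through STAT5. Mup20 encodes darcin, the male pheromone protein that attracts females, and Mup1 is also known as a circulating regulator of glucose and lipid metabolism in mice. Mup4 and Mup5 are better known from glands of the head than from liver.

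In NCBIM37 42 of the 43 members lay on chromosome 4 between positions 59969676 and 61811897, a stretch of 1.842 Mb. Mup-ps22 lay apart on chromosome 11 at chr11:54937197-54937439 on the plus strand, 878 bases from Slc36a3, the nearest gene. On chromosome 4, a block of 15 protein-coding genes ran from 60079341 to 61443322, all 15 on the minus strand: Mup1, Mup2 and Mup7 to Mup19. Each of these shared at least 99% of its coding bases with another member of the block. Across the block, identity between pairs ran from 98.34% to 100%. The other 6 protein-coding genes flanked the block, Mup4 and Mup6 on one side and Mup5, Mup20, Mup3 and Mup21 on the other, and shared 84.16% to 91.53% with genes of the block. These are called the near-identical and the divergent genes below. Of the pseudogenes on chromosome 4, 16 were on the plus strand, opposite to the near-identical genes, and 5 were on the minus strand.

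The reference sequences show how little separates these genes. The Mup copies of the CD-1 cells themselves were not examined and may differ from the reference. A stretch of 75 coding bases is shown for the genes that results turn on, counted from base 151 to base 225 of the Mup10 coding sequence, in the annotation of NCBIM37. Capitals mark bases that differ from Mup10.
Mup10: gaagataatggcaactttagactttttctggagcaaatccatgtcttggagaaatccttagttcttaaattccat
Mup9: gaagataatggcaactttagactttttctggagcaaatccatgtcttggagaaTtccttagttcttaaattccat
Mup16: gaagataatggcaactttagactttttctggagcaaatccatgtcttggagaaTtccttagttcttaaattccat
Mup8: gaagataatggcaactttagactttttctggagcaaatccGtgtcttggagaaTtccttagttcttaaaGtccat
Mup17: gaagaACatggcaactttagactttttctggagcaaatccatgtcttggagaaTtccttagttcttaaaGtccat
Mup20: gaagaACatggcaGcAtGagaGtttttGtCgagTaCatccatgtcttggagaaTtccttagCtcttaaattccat
Mup3: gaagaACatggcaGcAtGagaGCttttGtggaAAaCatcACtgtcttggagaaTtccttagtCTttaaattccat
Mup21: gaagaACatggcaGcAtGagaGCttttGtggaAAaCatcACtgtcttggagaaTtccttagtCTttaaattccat
In this stretch Mup9 and Mup16 carried the same letters and differed from Mup10 at 1 base. Mup8 differed from Mup10 at 3 bases and Mup17 at 4. Mup20 differed at 12 bases. Mup3 and Mup21 carried the same letters and differed at 16.

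Over whole exons, the share of 50-base stretches found at 1 place in the genome was 0% for Mup19, 6.47% for Mup9, 9.35% for Mup16, 13.2% for Mup8, 18.9% for Mup10 and 26.2% for Mup17, the highest of the near-identical genes. Among the divergent genes it was 12.9% for Mup20, 68.9% for Mup21, 76.4% for Mup3 and 94.6% for Mup6. For Mup-ps22 it was 92.8%. The counting of reads that match several genes is unstated in the labels, so the split of reads among the near-identical genes is uncertain, and sums are given beside single genes. Mup9 and Mup18, with coding sequences of 543 and 546 bases, were identical at all 543 aligned bases. Mup7 and Mup2 also overlapped by 148 exonic bases on the same strand, and Mup14 and Mup15 by 398.

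Upstream sequences were alike as well. For 5 members the 100 bases before the start are shown, from RefSeq on GRCm38.p6, a later build than that of the count files, all on the minus strand and with the motif TATATAA in capitals.
Mup10 (chr4:60582156-60582255): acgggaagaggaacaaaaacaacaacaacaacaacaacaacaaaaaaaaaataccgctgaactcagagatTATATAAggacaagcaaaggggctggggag
Mup9 (chr4:60421953-60422052): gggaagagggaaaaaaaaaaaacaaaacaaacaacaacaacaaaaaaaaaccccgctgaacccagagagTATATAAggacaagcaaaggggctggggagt
Mup17 (chr4:61595833-61595932): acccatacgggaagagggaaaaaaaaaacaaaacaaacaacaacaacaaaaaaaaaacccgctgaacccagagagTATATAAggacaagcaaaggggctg
Mup3 (chr4:62087318-62087417): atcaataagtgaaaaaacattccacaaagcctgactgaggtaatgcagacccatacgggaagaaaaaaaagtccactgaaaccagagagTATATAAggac
Mup21 (chr4:62150842-62150941): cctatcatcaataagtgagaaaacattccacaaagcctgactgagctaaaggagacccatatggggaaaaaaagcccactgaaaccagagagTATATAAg
RefSeq listed 38 windows for 17 Mup genes and pseudogenes. Of these, 12 held TATATAA on either strand in the 250 bases before the start, against 998 of 32851 windows of all genes (3.04%). The STAT5 motif TTCNNNGAA was found in 0 of the 38 windows and in 2306 of all windows (7.02%). Both counts describe letters in these windows only.

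All 43 members were in the count files. With a filter on low counts, 21 entered the tests: 19 protein-coding genes, Mup-ps18 and Mup-ps22. The 22 left out held 0 to 70 counts over all 18 libraries, and 6 of them, all pseudogenes, held 0. The protein-coding genes left out were Mup4, with 70 counts, and Mup15, with 36.

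Library totals ran from 1755819 to 10145265 counts. Levels are given in CPM, counts scaled to a library of 1000000 after correction by the trimmed mean of M-values (TMM). Ttr, the target, checked the labels: it averaged 243 ± 19.1 CPM with siRNA, 1118 ± 47.6 CPM with scrambled REVERSIR, 1265 ± 157 CPM with TTR REVERSIR, 226 ± 0.691 CPM with siRNA + scrambled REVERSIR, 1054 ± 112 CPM with siRNA + TTR REVERSIR and 1111 ± 96.8 CPM in PBS (SD, n = 3 each). PBS replicates 1 and 2 stood apart. Mitochondrial ribosomal RNA took 1.69% to 9.56% of the counts in the 15 treated libraries, against 24.3%, 24.1% and 5.45% in PBS replicates 1, 2 and 3. Hepatocyte markers summed to 55529 to 62918 CPM in treated libraries and to 68517, 63957 and 58597 CPM in PBS. Markers of other liver cells were low, with the highest sums, those of Kupffer cells and macrophages, at 281 to 359.9 CPM with treatment and 360.0, 387 and 314 CPM in PBS. Cd68 gave most of that sum, and the more specific Emr1 and Clec4f peaked at 0.683 and 6.45 CPM. The sums of the other lists were 42.01 to 63.5 CPM with treatment and 56.1, 56.3 and 46.9 CPM in PBS for endothelium, 120.4 to 162 CPM with treatment and 151, 147 and 149.5 CPM in PBS for stellate cells and fibroblasts, and 12.7 to 19.5 CPM with treatment and 21.03, 20.3 and 21.9 CPM in PBS for cholangiocytes. For cholangiocytes each PBS sum was above all treated ones, and its part in the Mup values was not tested. No marker of these lists was at 0 in every library.

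The family as a whole took 1.01% to 1.22% of the counts of treated libraries, against 0.985%, 0.902% and 1.12% in PBS. A few members made up most of it. Mup3 held 45.3% of all Mup counts, Mup10 28.9%, Mup7 11.01%, Mup20 6.42% and Mup9 3.14%. Per kilobase of exon, Mup3 reached a mean of 5026 CPM per kb and ranked 11 among 11150 genes. Mup10 reached 2229 and ranked 23, Mup7 1167 and 43, and Mup20 747 and 58. At the low end Mup11 reached 1.07 CPM per kb. The gland-type member Mup5 reached 4.84.

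**Figure D1:**
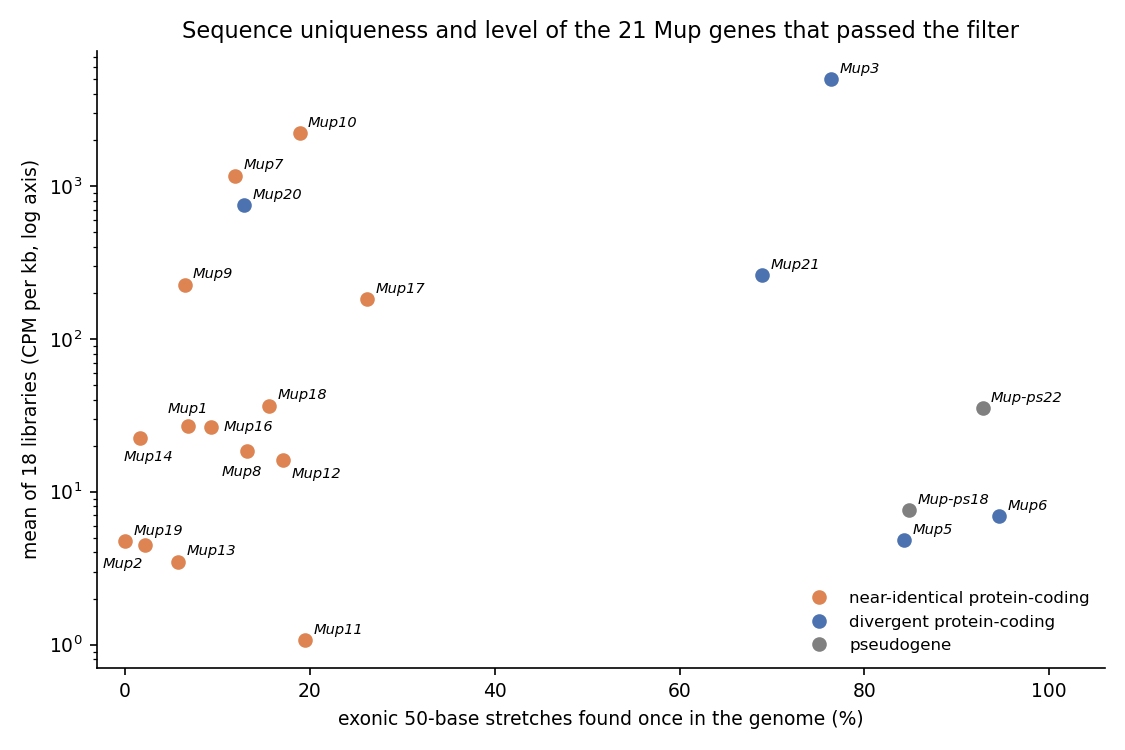
The horizontal axis gives the percent of exonic 50-base stretches found once in NCBIM37 and the vertical axis the mean level of 18 libraries in CPM per kb on a log axis, 1 point for each of the 21 Mup genes that passed the filter. All near-identical genes lie at 26.2% or below, and Mup3 combines a high level with 76.4%.

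The summed level of all 43 members does not depend on how reads were split among copies, though it would miss reads left uncounted for matching several genes. The sum was 10089, 9948 and 10127 CPM with siRNA, 10391, 10273 and 10694 with scrambled REVERSIR, 10387, 10673 and 10480.1 with TTR REVERSIR, 10618, 10633 and 10779 with siRNA + scrambled REVERSIR, 11363, 10843 and 10584 with siRNA + TTR REVERSIR, and 13200.3, 11913 and 10927 in PBS. All libraries of siRNA, scrambled REVERSIR, TTR REVERSIR and siRNA + scrambled REVERSIR lay below the lowest PBS library, and those of siRNA + TTR REVERSIR overlapped PBS. The group means were 10055 ± 94.1 CPM with siRNA, 10452 ± 217 CPM with scrambled REVERSIR, 10514 ± 146 CPM with TTR REVERSIR, 10677 ± 88.8 CPM with siRNA + scrambled REVERSIR, 10930.1 ± 397 CPM with siRNA + TTR REVERSIR and 12013 ± 1140.1 CPM in PBS (SD, n = 3 each). Against PBS the ratio of means was 83.7% with siRNA, 87.01% with scrambled REVERSIR, 87.5% with TTR REVERSIR, 88.9% with siRNA + scrambled REVERSIR and 90.98% with siRNA + TTR REVERSIR, with the same PBS libraries in each. No test was made of the sum. In bulk RNA, fewer hepatocytes and less Mup RNA per hepatocyte cannot be told apart. PBS replicates 1 and 2 held the highest sums, and the part of their mitochondrial ribosomal RNA in this was not tested.

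These lower sums depended on the scaling and on those libraries. On the log2 scale the ratios to PBS were −0.26, −0.20, −0.19, −0.17 and −0.14 for siRNA, scrambled REVERSIR, TTR REVERSIR, siRNA + scrambled REVERSIR and siRNA + TTR REVERSIR. With PBS replicate 3 as the only control they were −0.11, −0.061, −0.050, −0.028 and 0.0071 in the same order, and with PBS replicate 1 alone left out −0.18, −0.13, −0.12, −0.091 and −0.058. With library totals alone as the scale they turned to 0.064, 0.088, 0.11, 0.15 and 0.19, all above 0, but the median of all genes then moved up by 0.33, 0.29, 0.31, 0.32 and 0.33, so that relative to the other genes the Mup sum stayed lower. By class, the near-identical genes summed to 4634 ± 188 CPM with siRNA against 5511 ± 473 CPM in PBS, and the divergent genes to 5409 ± 133 CPM with siRNA against 6478 ± 682 CPM in PBS. The pseudogenes summed to 11.6 ± 1.01 CPM with siRNA against 23.5 ± 5.67 CPM in PBS (SD, n = 3 each).

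**Figure D2:**
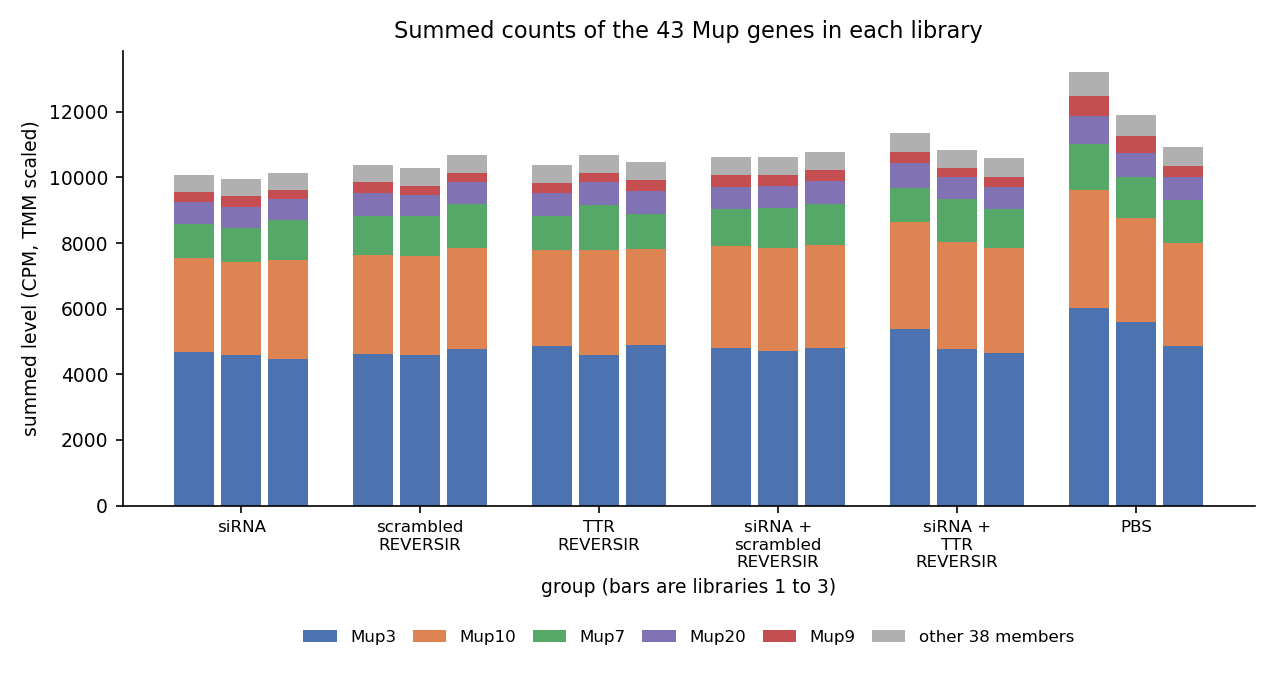
Each bar is a library and its height the summed level of the 43 Mup genes in CPM after TMM scaling, with colours for the 5 most abundant members and for the other 38. The PBS bars at 13200.3 and 11913 CPM stand above the treated ones, and the PBS bar at 10927 CPM does not stand above all of them.

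Among single genes, the abundant members come first. Mup3 measured 4685, 4599.7 and 4471 CPM with siRNA, 4619.8, 4576 and 4761 with scrambled REVERSIR, 4875, 4584 and 4892 with TTR REVERSIR, 4809, 4714 and 4789 with siRNA + scrambled REVERSIR, 5387, 4783 and 4641 with siRNA + TTR REVERSIR, and 6019, 5603 and 4856 in PBS. Its highest libraries were PBS replicates 1 and 2, and PBS replicate 3 lay within the treated range. Mup10 measured 2852, 2816 and 3001 CPM with siRNA, 3005, 3016 and 3089.9 with scrambled REVERSIR, 2916, 3203 and 2917 with TTR REVERSIR, 3090.4, 3134 and 3165 with siRNA + scrambled REVERSIR, 3251, 3261 and 3204 with siRNA + TTR REVERSIR, and 3589.6, 3167 and 3137 in PBS. PBS replicate 1 was highest and PBS replicate 2 lay within the treated range. Mup7 measured 1051, 1033 and 1242 CPM with siRNA, 1204, 1232 and 1330.2 with scrambled REVERSIR, 1033, 1383 and 1079 with TTR REVERSIR, 1143, 1223 and 1238 with siRNA + scrambled REVERSIR, 1053, 1290.2 and 1207 with siRNA + TTR REVERSIR, and 1399, 1241 and 1321 in PBS. Its libraries overlapped in every comparison with PBS except that of siRNA + scrambled REVERSIR.

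Mup20 measured 662, 659 and 614 CPM with siRNA, 689.6, 636 and 674 with scrambled REVERSIR, 689, 696 and 702 with TTR REVERSIR, 680.3, 677 and 697 with siRNA + scrambled REVERSIR, 748, 665 and 666 with siRNA + TTR REVERSIR, and 879, 747 and 705 in PBS. This is darcin, with PBS replicate 1 highest and all siRNA libraries below PBS. Mup21 measured 169, 163 and 169 CPM with siRNA, 168, 175 and 173 with scrambled REVERSIR, 173, 173 and 169 with TTR REVERSIR, 168, 177 and 171 with siRNA + scrambled REVERSIR, 198, 178 and 185 with siRNA + TTR REVERSIR, and 209.9, 178 and 191 in PBS. Mup21, the closest relative of Mup3, had its highest value in PBS replicate 1.

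Next come less abundant near-identical copies. Mup9 measured 299, 314 and 289 CPM with siRNA, 327, 293 and 293 with scrambled REVERSIR, 324, 275 and 336 with TTR REVERSIR, 349, 324 and 335 with siRNA + scrambled REVERSIR, 325, 291 and 303 with siRNA + TTR REVERSIR, and 597, 514 and 315 in PBS. PBS replicates 1 and 2 were above all other libraries, and PBS replicate 3 was among the treated values. Mup16 measured 26.95, 22.4 and 23.98 CPM with siRNA, 21.2, 23.2 and 22.5 with scrambled REVERSIR, 24.4, 18.2 and 19.6 with TTR REVERSIR, 28.3, 25.6 and 26.04 with siRNA + scrambled REVERSIR, 33.8, 25.2 and 28.2 with siRNA + TTR REVERSIR, and 49.98, 49.1 and 26.2 in PBS. The same pair of PBS libraries stood above the rest. Mup17 measured 162, 162 and 156 CPM with siRNA, 164, 139.8 and 143 with scrambled REVERSIR, 169.7, 158 and 172 with TTR REVERSIR, 168, 172 and 174 with siRNA + scrambled REVERSIR, 170.2, 164 and 162 with siRNA + TTR REVERSIR, and 239, 208 and 163 in PBS. Again PBS replicates 1 and 2 were the highest libraries and PBS replicate 3 was not apart.

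Mup8 measured 21.5, 18.6 and 14.04 CPM with siRNA, 14.004, 17.8 and 24.2 with scrambled REVERSIR, 23.6, 15.5 and 28.5 with TTR REVERSIR, 19.9, 18.1 and 19.8 with siRNA + scrambled REVERSIR, 23.1, 18.2 and 17.1 with siRNA + TTR REVERSIR, and 9.12, 8.34 and 16.6 in PBS. Here PBS replicates 1 and 2 stood below all others, the opposite of Mup9 and Mup16. Mup18 measured 33.6, 33.02 and 28.2 CPM with siRNA, 32.5, 27.3 and 38.2 with scrambled REVERSIR, 31.8, 28.2 and 32.8 with TTR REVERSIR, 36.7, 34.5 and 36.98 with siRNA + scrambled REVERSIR, 35.3, 30.4 and 33.6 with siRNA + TTR REVERSIR, and 44.2, 42.1 and 33.3 in PBS. Mup18, identical to Mup9 at all 543 aligned coding bases, had PBS replicates 1 and 2 highest by a smaller margin. Mup-ps22 measured 6.69, 7.02 and 6.199 CPM with siRNA, 11.4, 6.49 and 10.7 with scrambled REVERSIR, 7.59, 8.19 and 6.76 with TTR REVERSIR, 5.91, 5.42 and 6.94 with siRNA + scrambled REVERSIR, 8.23, 6.57 and 6.95 with siRNA + TTR REVERSIR, and 19.6, 12.4 and 11.3 in PBS. In this pseudogene each PBS library was above every treated one, except that scrambled REVERSIR replicate 1 exceeded PBS replicate 3 slightly.

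In all, PBS replicates 1 and 2 were both above the 15 treated libraries for 6 of the 21 members (Mup9, Mup16, Mup17, Mup18, Mup3 and Mup-ps22) and for 819 of 11153 genes (7.34%). They were both below for 1 member, Mup8, and for 724 genes (6.49%). PBS replicate 3 lay within the treated range for 17 of the 21 members and for 88.5% of genes.

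The remaining near-identical genes were low. Mup1 measured 38.5, 40.04 and 37.8 CPM with siRNA, 49.6, 51.9 and 46.1 with scrambled REVERSIR, 38.5, 54.6 and 39.8 with TTR REVERSIR, 35.95, 37.2 and 37.7 with siRNA + scrambled REVERSIR, 38.5, 42.1 and 45.04 with siRNA + TTR REVERSIR, and 46.8, 41.2 and 49.7 in PBS. All libraries with siRNA, alone or combined, lay below all those with scrambled REVERSIR alone. Mup14 measured 29.6, 28.1 and 28.7 CPM with siRNA, 33.3, 26.7 and 35.4 with scrambled REVERSIR, 34.9, 26.4 and 33.8 with TTR REVERSIR, 32.3, 33.6 and 33.3 with siRNA + scrambled REVERSIR, 39.4, 32.1 and 30.9 with siRNA + TTR REVERSIR, and 33.9, 36.05 and 34.5 in PBS. Mup12 measured 14.997, 19.5 and 13.2 CPM with siRNA, 19.7, 20.2 and 16.9 with scrambled REVERSIR, 15.3, 18.6 and 20.04 with TTR REVERSIR, 16.2, 18.1 and 13.02 with siRNA + scrambled REVERSIR, 16.6, 18.3 and 15.96 with siRNA + TTR REVERSIR, and 18.6, 20.95 and 22.2 in PBS. Neither gene set PBS replicates 1 and 2 apart from PBS replicate 3.

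At under 10 CPM in most libraries, the other members rest on few counts. Mup6 measured 7.904, 6.26 and 7.25 CPM with siRNA, 4.92, 7.18 and 8.43 with scrambled REVERSIR, 6.86, 4.55 and 5.31 with TTR REVERSIR, 5.91, 7.91 and 3.99 with siRNA + scrambled REVERSIR, 7.396, 5.95 and 9.14 with siRNA + TTR REVERSIR, and 11.9, 7.21 and 6.55 in PBS. Mup2 measured 7.701, 7.02 and 6.08 CPM with siRNA, 6.43, 4.78 and 6.75 with scrambled REVERSIR, 4.96, 5.003 and 7.48 with TTR REVERSIR, 5.11, 7.48 and 7.12 with siRNA + scrambled REVERSIR, 6.56, 7.98 and 7.98 with siRNA + TTR REVERSIR, and 6.15, 6.76 and 11.1 in PBS. PBS replicate 3 was the highest library of Mup2. Mup19 measured 5.27, 3.61 and 5.497 CPM with siRNA, 4.54, 6.83 and 6.18 with scrambled REVERSIR, 3.503, 5.003 and 4.104 with TTR REVERSIR, 5.11, 5.64 and 5.38 with siRNA + scrambled REVERSIR, 3.65, 7.35 and 5.28 with siRNA + TTR REVERSIR, and 5.95, 3.605 and 8.32 in PBS. Mup19, with no 50-base stretch of its own, was also highest in PBS replicate 3. Mup5 measured 3.45, 4.17 and 4.68 CPM with siRNA, 4.54, 4.101 and 1.69 with scrambled REVERSIR, 6.13, 4.09 and 2.41 with TTR REVERSIR, 5.11, 3.14 and 4.86 with siRNA + scrambled REVERSIR, 5.83, 2.97 and 4.12 with siRNA + TTR REVERSIR, and 5.95, 6.76 and 6.55 in PBS. In Mup5 the highest libraries were PBS replicates 2 and 3. Mup13 measured 4.26, 3.23 and 2.34 CPM with siRNA, 2.65, 4.44 and 4.498 with scrambled REVERSIR, 2.34, 4.55 and 3.62 with TTR REVERSIR, 3.71, 2.82 and 3.65 with siRNA + scrambled REVERSIR, 2.19, 3.599 and 2.96 with siRNA + TTR REVERSIR, and 2.58, 4.51 and 3.78 in PBS. Mup11 measured 2.03, 0.759 and 1.52 CPM with siRNA, 0.757, 1.71 and 1.69 with scrambled REVERSIR, 2.19, 1.36 and 1.21 with TTR REVERSIR, 1.302, 1.95 and 1.56 with siRNA + scrambled REVERSIR, 1.88, 1.41 and 1.42 with siRNA + TTR REVERSIR, and 4.17, 1.802 and 1.76 in PBS. Mup11 was highest in PBS replicate 1. The pseudogene Mup-ps18 ranged over 1.03 to 6.46 CPM with treatment and measured 4.76, 7.66 and 2.77 CPM in PBS.

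**Figure D3:**
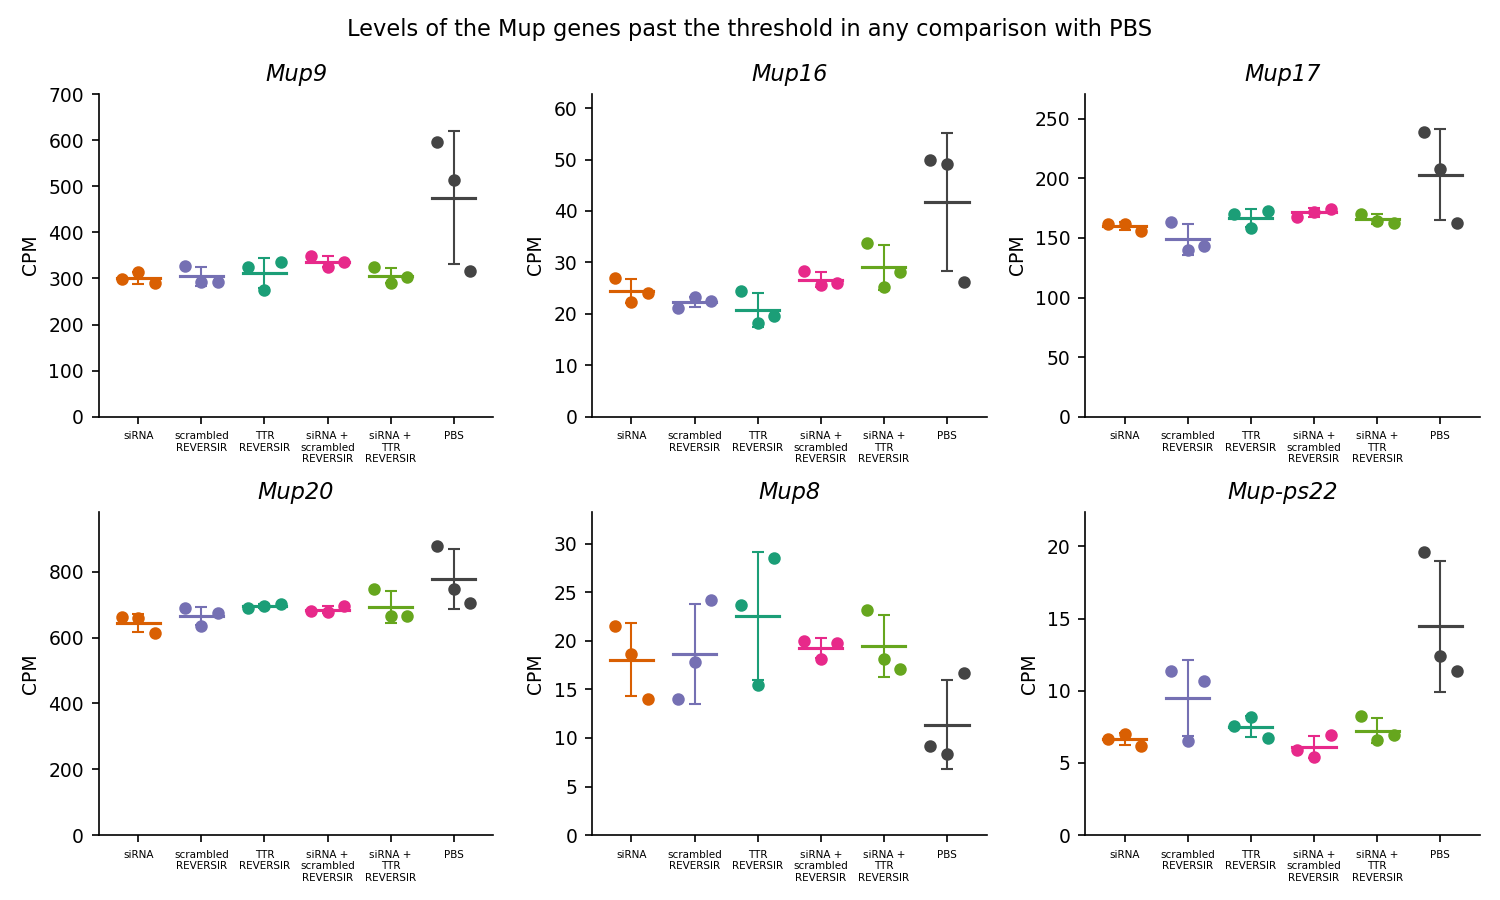
Points are libraries, lines group means and bars SDs (n = 3) in CPM after TMM scaling, for the 6 Mup genes past the threshold in at least 1 comparison with PBS. In the panels of Mup9, Mup16 and Mup17 a pair of PBS points stands above all others while the third PBS point lies among the treated ones, and in the panel of Mup8 the pair stands below.

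With siRNA alone, 5 of the 21 members tested were lower than in PBS, where 2.62% of all genes were called in either direction and 1.6% lower. A call is an adjusted p under 0.05 by the quasi-likelihood test of edgeR (Benjamini-Hochberg, 11153 genes), and each log2 fold change stands with its standard error. These were Mup-ps22 (−1.16 ± 0.20, adjusted p = 0.0108), Mup16 (−0.79 ± 0.16, adjusted p = 0.0171), Mup9 (−0.66 ± 0.13, adjusted p = 0.0161), Mup17 (−0.35 ± 0.089, adjusted p = 0.0376) and the darcin gene Mup20 (−0.27 ± 0.073, adjusted p = 0.0486). None was called higher, where 1.01% of genes were. The abundant Mup3 (−0.26 ± 0.078, adjusted p = 0.0681) and Mup10 (−0.19 ± 0.070, adjusted p = 0.132) did not pass. The median log2 fold change of the 21 members was −0.28, against 0.0029 for all genes, and 20 of the 21 were below 0, Mup8 (0.66) being the exception. The other treatments had medians below 0 against the same PBS libraries. They were −0.24 with scrambled REVERSIR, −0.28 with TTR REVERSIR, and −0.24 and −0.17 with siRNA + scrambled REVERSIR and siRNA + TTR REVERSIR. In that order 18, 20, 20 and 19 members were below 0. An unadjusted p under 0.05 was found for 17 members with siRNA and for 10, 9, 11 and 7 in that order. Of all 11153 genes, 1636 to 2241 had one. Libraries of the groups did not overlap for 10 members with siRNA lower and 0 with it higher, against 9.93% and 9.51% of all genes.

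The count of members called changed with the libraries used. Without PBS replicates 1 and 2, the lone PBS library was assumed to vary like the other groups. In that fit Mup9 stood at −0.061, Mup16 at −0.099, Mup17 at −0.020 and Mup20 at −0.12. Mup-ps22, the other member called in the full fit, was at −0.78. Among members not called there, Mup19 was at −0.76, Mup2 at −0.70 and Mup5 at −0.64, all on few counts, and Mup12 at −0.50. Only Mup6 and Mup8 were above 0, at 0.13 and 0.084. The number of members called was 0 without PBS replicate 1, 1 without PBS replicate 2, siRNA replicate 2 or siRNA replicate 3, 3 without siRNA replicate 1, TTR REVERSIR replicate 3 or siRNA + scrambled REVERSIR replicate 2, and 11 without PBS replicate 3. Of all genes, 0.0089% to 0.392% were called in the fits that gave 0 or 1 member, 0.542% to 1.78% in those that gave 3, and 12% without PBS replicate 3. With the siRNA and PBS libraries fitted alone no member was called. For fits with PBS replicate 3 alone, where 1 library stands for the control, only effect sizes are given. Here and below, no share of all genes called is given for fits of the compared groups alone. A count of 0 members in those fits is therefore no result about Mup genes in particular. Scaled by library totals alone, Mup9, Mup16 and Mup-ps22 were called lower and Mup8 higher, Mup17 and Mup20 lost their calls, Mup3, Mup10, Mup7 and Mup20 turned above 0, 11 of the 21 members changed sign, and 34.5% of all genes were called, with the median of all genes higher by 0.33.

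In the authors' deposited table of this comparison, 7 members were listed as lower with an adjusted p under 0.05, namely Mup9, Mup16, Mup17, Mup20, Mup3, Mup10 and Mup21, and 0 as higher, where 5.33% and 3.04% of the genes given an adjusted p were. The authors' deposited table gave log2 fold changes of −0.47 for Mup16, −0.42 for Mup9 and −0.24 for Mup3. For Mup-ps22 the authors' deposited table gave −0.54 with no adjusted p.

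The scrambled REVERSIR given alone, set against the same PBS libraries, asks what the oligonucleotide does without a matching guide. Mup16 (−0.92 ± 0.20, adjusted p = 0.0416), Mup9 (−0.65 ± 0.13, adjusted p = 0.036) and Mup17 (−0.45 ± 0.095, adjusted p = 0.0377) were lower, 3 of 21 members, where 0.305% of genes were called lower. None was called higher, where 0.117% of genes were. With PBS replicate 3 alone as the control, Mup16 was at −0.23, Mup9 at −0.046 and Mup17 at −0.12. The number called was 0 without PBS replicate 1 or 2, siRNA replicate 3, scrambled REVERSIR replicate 2 or 3, TTR REVERSIR replicate 3, siRNA + scrambled REVERSIR replicate 2 or 3, or siRNA + TTR REVERSIR replicate 2 or 3, 1 without siRNA replicate 2, and 8 without PBS replicate 3. Of all genes, 0% to 0.201% were called in the fits that gave 0 or 1 and 6.56% without PBS replicate 3. The compared groups fitted alone gave 0. Scaled by library totals alone, Mup16 was called lower and Mup8 higher, 8 of the 21 members changed sign, and 14.2% of all genes were called, with the median of all genes higher by 0.29. The authors' deposited table listed Mup9, Mup16, Mup17 and Mup3 as lower, where 2.21% of its genes with an adjusted p were lower and 1.67% higher. Libraries of the groups did not overlap for 7 members with scrambled REVERSIR lower and 0 with it higher, against 7.18% and 7.3% of all genes.

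With the TTR REVERSIR alone, Mup16 (−0.98 ± 0.18, adjusted p = 0.0283), Mup9 (−0.61 ± 0.13, adjusted p = 0.0357) and Mup-ps22 (−0.98 ± 0.21, adjusted p = 0.0357) were lower than in PBS and Mup8 (1.08 ± 0.23, adjusted p = 0.0357) was higher. Of all genes 0.359% were called lower and 0.341% higher. Mup8 was above 0 in the other comparisons with PBS too, without passing, at 0.66 with siRNA, 0.70 with scrambled REVERSIR, 0.79 with siRNA + scrambled REVERSIR and 0.82 with siRNA + TTR REVERSIR, with PBS shared by all of them. On library totals alone Mup8 passed in each comparison with PBS. Against PBS replicate 3 alone, Mup8 was at 0.51, Mup16 at −0.28, Mup9 at −0.0040 and Mup-ps22 at −0.60. The number called was 0 without PBS replicate 1 or 2 or TTR REVERSIR replicate 1 or 3, and 7 without PBS replicate 3. Of all genes, 0% to 0.0089% were called in the fits that gave 0 and 8.56% without PBS replicate 3. The count was 0 with the compared groups alone, and DESeq2 called Mup9 but gave no adjusted p to the other 3. Scaled by library totals alone, Mup16 and Mup-ps22 were called lower and Mup8 higher, 10 of the 21 members changed sign, and 25.8% of all genes were called, with the median of all genes higher by 0.31. The authors' deposited table listed Mup9 and Mup16 as lower, where 1.29% of its genes with an adjusted p were lower and 1.37% higher. Libraries of the groups did not overlap for 5 members with TTR REVERSIR lower and 0 with it higher, against 6.38% and 5.66% of all genes.

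With siRNA and the scrambled REVERSIR together, Mup-ps22 (−1.29 ± 0.19, adjusted p = 0.00365) and Mup16 (−0.66 ± 0.16, adjusted p = 0.0485) were lower than in PBS, 2 of 21 members, where 0.61% of genes were called and 0.403% were lower. Mup9 was at −0.50 ± 0.13, adjusted p = 0.0604. Against PBS replicate 3 alone, Mup16 turned to 0.033 and Mup-ps22 stood at −0.91. The number called was 0 without PBS replicate 1 or siRNA + scrambled REVERSIR replicate 2, 7 without PBS replicate 3, and 1 without PBS replicate 2, any siRNA or scrambled REVERSIR replicate, TTR REVERSIR replicate 3, siRNA + scrambled REVERSIR replicate 1 or 3, or siRNA + TTR REVERSIR replicate 2 or 3. Of all genes, 0.0089% to 0.604% were called in the fits that gave 0 or 1 and 10% without PBS replicate 3. The fit of the compared groups alone called 0, and DESeq2 called 0 but gave neither of these genes an adjusted p. Scaled by library totals alone, Mup-ps22 was called lower and Mup8 higher, 12 of the 21 members changed sign, and 31.9% of all genes were called, with the median of all genes higher by 0.32. The authors' deposited table listed Mup9 and Mup3 as lower, where 4.53% of its genes with an adjusted p were lower and 2.36% higher. Libraries of the groups did not overlap for 9 members with siRNA + scrambled REVERSIR lower and 1 with it higher, against 9.67% and 9.55% of all genes.

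With siRNA and the TTR REVERSIR together, Mup-ps22 (−1.0002 ± 0.19, adjusted p = 0.0219) and Mup9 (−0.64 ± 0.13, adjusted p = 0.028) were lower than in PBS, where 0.439% of genes were. Mup16 was at −0.53 ± 0.15, adjusted p = 0.0844. Against PBS replicate 3 alone, Mup9 was at −0.035 and Mup-ps22 at −0.62. The number called was 0 without PBS replicate 1 or 2 or any of the siRNA + TTR REVERSIR replicates, and 8 without PBS replicate 3. Of all genes, 0% to 0.205% were called in the fits that gave 0 and 10.1% without PBS replicate 3. The count was 0 with the compared groups alone. Scaled by library totals alone, Mup-ps22 was called lower and Mup8 higher, 14 of the 21 members changed sign, and 36.7% of all genes were called, with the median of all genes higher by 0.33. The authors' deposited table listed Mup9 and Mup17 as lower, where 2.4% of its genes with an adjusted p were lower and 1.28% higher. Libraries of the groups did not overlap for 3 members with siRNA + TTR REVERSIR lower and 1 with it higher, against 8.25% and 7.79% of all genes.

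**Figure D4:**
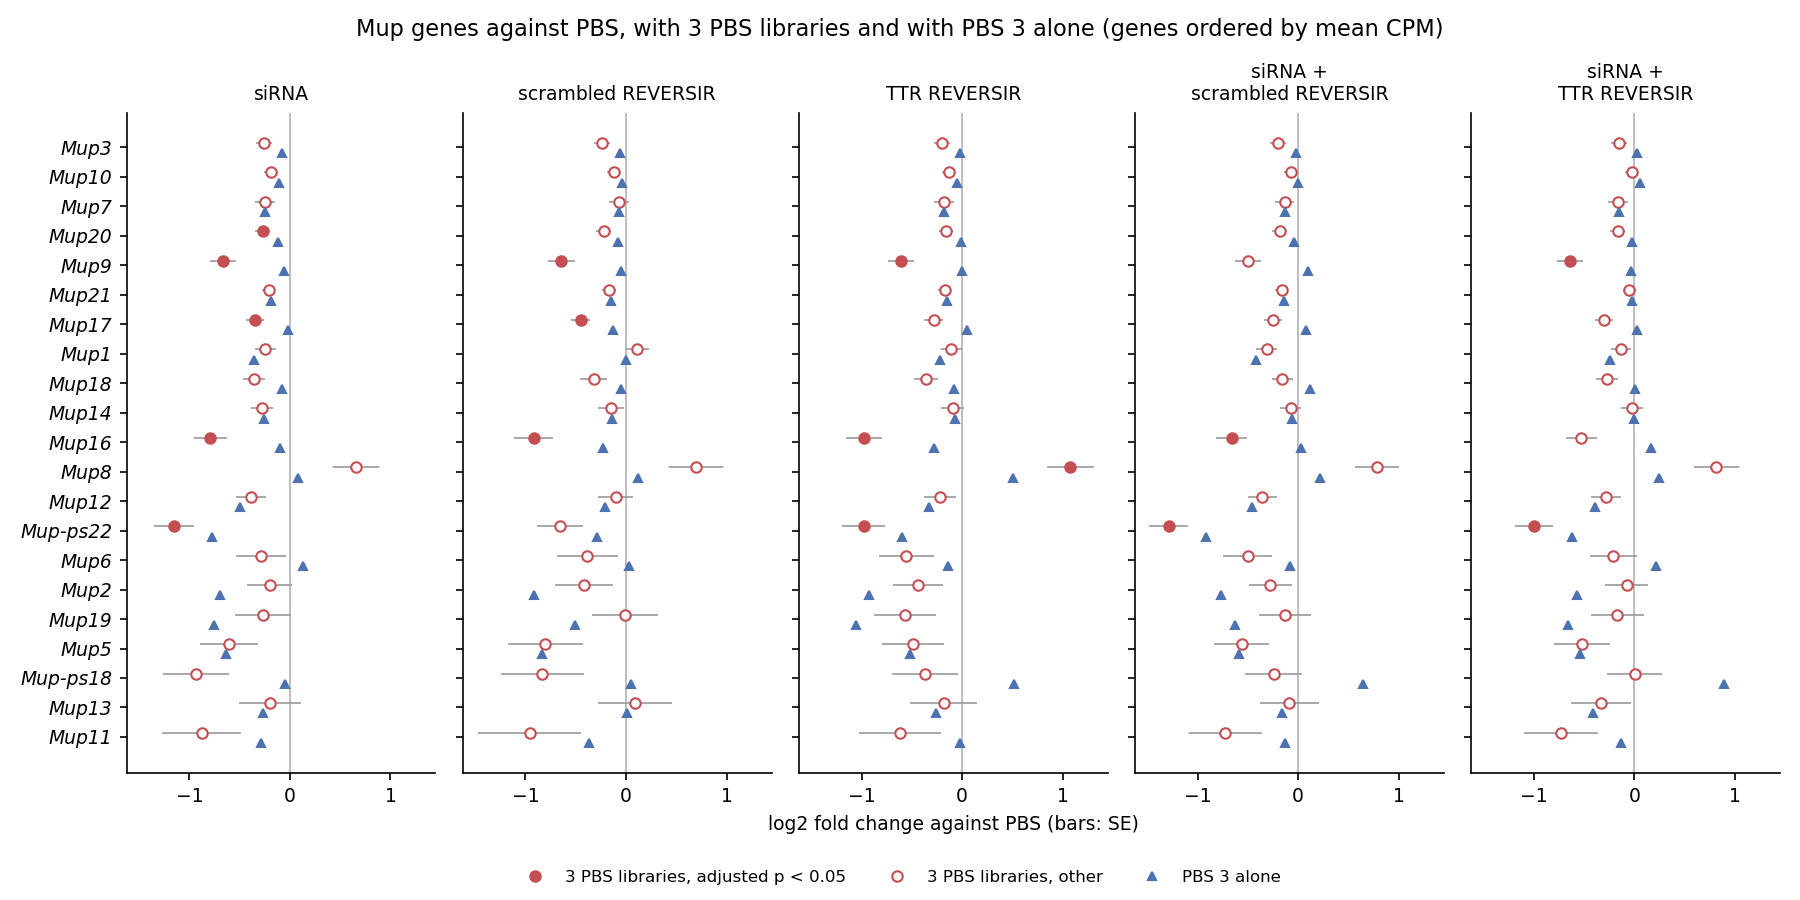
Circles give the log2 fold change against PBS of the 21 Mup genes that passed the filter, with bars for standard errors and filled where the adjusted p is under 0.05, and triangles the values against PBS replicate 3 alone, in 1 panel for each treatment. For Mup9 and Mup16 the triangles lie near 0 or well short of the circles, and for Mup-ps22 they stay between −0.29 and −0.91.

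The share of a gene within the Mup counts of its library does not depend on the scaling. Intervals are 95% Wilson intervals and cover counting error only. Mup9 held 2.57% to 3.28% of the Mup counts in treated libraries, against 4.52% (4.37% to 4.68%), 4.32% (4.15% to 4.49%) and 2.88% (2.73% to 3.05%) in PBS replicates 1, 2 and 3. Mup16 held 0.1704% to 0.297% with treatment, against 0.379% (0.335% to 0.428%), 0.412% (0.361% to 0.471%) and 0.23996% (0.198% to 0.291%) in PBS. Mup8 held 0.135% to 0.272% with treatment, against 0.0691% (0.0518% to 0.0922%), 0.06997% (0.0508% to 0.0964%) and 0.152% (0.1197% to 0.194%) in PBS. For these 3 genes the intervals of PBS replicates 1 and 2 did not meet that of PBS replicate 3, which lay within the treated range. For Mup17 the shares were 1.34% to 1.64% with treatment and 1.81%, 1.75% and 1.49% in PBS. Among treated libraries, those with the most mitochondrial ribosomal RNA were siRNA + scrambled REVERSIR replicate 1, TTR REVERSIR replicate 2 and siRNA replicate 1, at 9.56%, 9.13% and 8.39% of counts. Their Mup9 shares were 3.28%, 2.57% and 2.97%. None of them came near the 24.3% and 24.1% of PBS replicates 1 and 2. The part of that RNA in the PBS values was not tested.

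**Figure D5:**
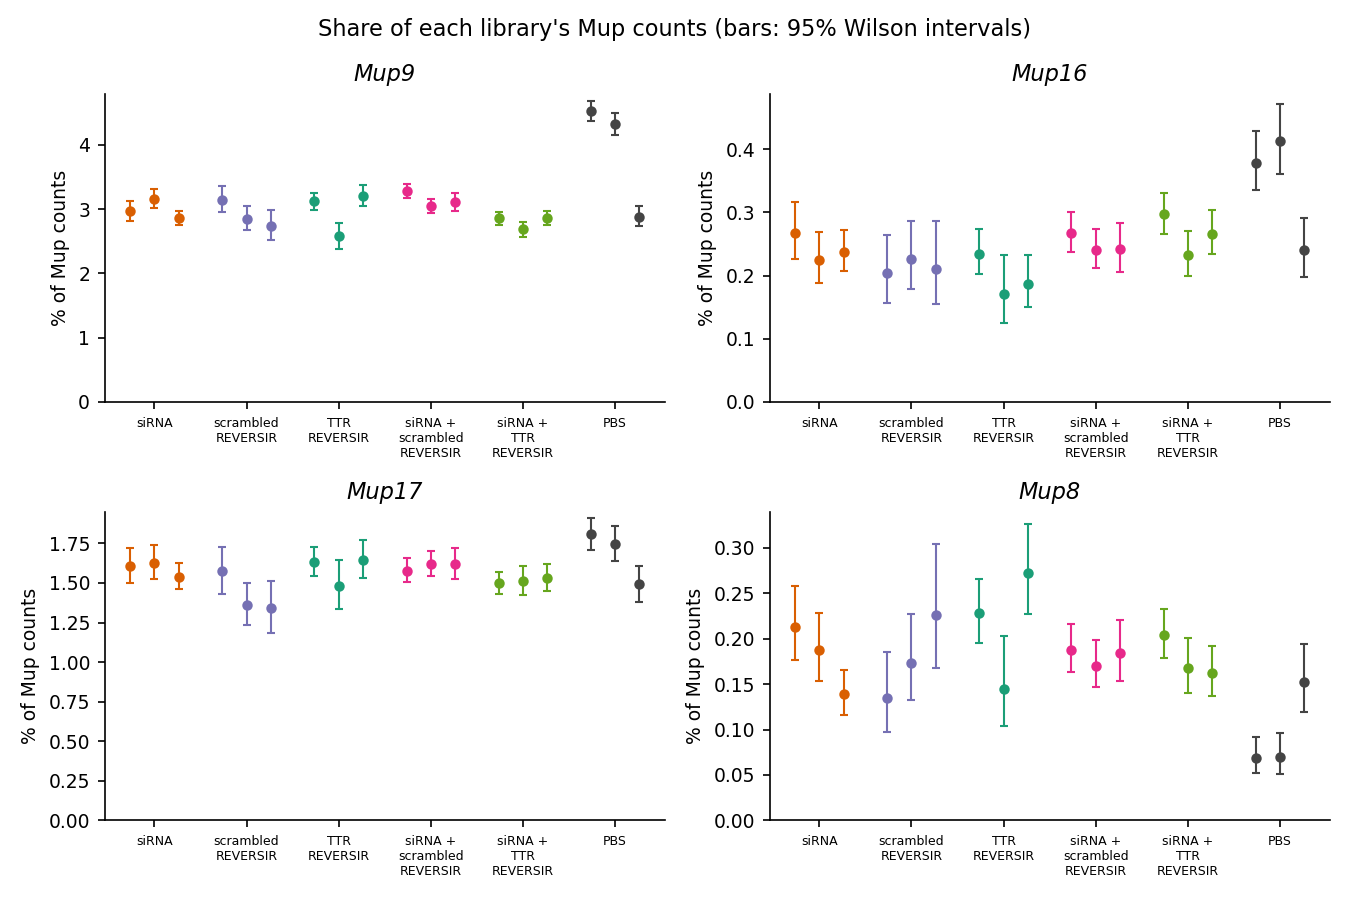
Points give the percent of each library's Mup counts held by Mup9, Mup16, Mup17 and Mup8, with 95% Wilson intervals, by group. PBS replicates 1 and 2 lie above all treated libraries for Mup9 and Mup16 and below them for Mup8, while PBS replicate 3 lies among the treated libraries.

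In the comparisons that did not use PBS, edgeR and DESeq2 called 0 of the 21 members, though DESeq2 gave 14 of them no adjusted p for siRNA + TTR REVERSIR against siRNA. The siRNA was tested in the presence of the scrambled REVERSIR as siRNA + scrambled REVERSIR against scrambled REVERSIR, where 0.0179% of genes were called. An unadjusted p under 0.05 was found for 3 of the 21 members and for 694 of all 11153 genes. Mup1 was at −0.43 ± 0.11, adjusted p = 0.509, Mup17 at 0.20 ± 0.094, adjusted p = 0.79 and Mup-ps22 at −0.63 ± 0.25, adjusted p = 0.741. Groups did not overlap for 1 members with siRNA + scrambled REVERSIR lower and 3 with it higher, against 7.67% and 6.86% of all genes. The most abundant gene, Mup3, was at 0.036 ± 0.078, 95% interval −0.12 to 0.20, and Mup9 was at 0.14 ± 0.13, 95% interval −0.13 to 0.42.

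The return of Ttr was tested as siRNA + TTR REVERSIR against siRNA, where 0.00897% of genes were called. An unadjusted p under 0.05 was found for 4 of the 21 members and for 667 of all 11153 genes. Mup10 was at 0.16 ± 0.070, adjusted p = 0.792, Mup14 at 0.26 ± 0.10, adjusted p = 0.784, Mup21 at 0.16 ± 0.062, adjusted p = 0.759 and Mup-ps18 at 0.94 ± 0.30, adjusted p = 0.643. Groups did not overlap for 0 members with siRNA + TTR REVERSIR lower and 6 with it higher, against 6.6% and 6.71% of all genes. The median over members was 0.11, against −0.0036 for all genes. The family sums were 10930.1 ± 397 CPM with siRNA + TTR REVERSIR and 10055 ± 94.1 CPM with siRNA (SD, n = 3 each), a log2 ratio of 0.12, and every siRNA + TTR REVERSIR library was above every siRNA library. The siRNA + scrambled REVERSIR libraries, at 10618, 10633 and 10779 CPM, were all above every siRNA library too, with Ttr at a mean of 226 CPM there. Whether the return of Ttr had a part in either order was not tested.

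The TTR REVERSIR was set against the scrambled one with siRNA present, as siRNA + TTR REVERSIR against siRNA + scrambled REVERSIR, and without it, as TTR REVERSIR against scrambled REVERSIR. Of all genes 0.00897% and 0.0179% were called. In either comparison 0 members had an unadjusted p under 0.05, against 242 and 818 of all 11153 genes. With siRNA present, Mup3 was at 0.049 ± 0.078, 95% interval −0.11 to 0.21, Mup10 at 0.049 ± 0.070, 95% interval −0.096 to 0.19 and Mup9 at −0.13 ± 0.13, 95% interval −0.40 to 0.13. Without siRNA, Mup3 was at 0.040 ± 0.078, 95% interval −0.12 to 0.20, Mup10 at −0.012 ± 0.070, 95% interval −0.16 to 0.13 and Mup9 at 0.038 ± 0.14, 95% interval −0.24 to 0.32. Groups did not overlap for 0 members with siRNA + TTR REVERSIR lower and 3 with it higher, against 4.59% and 4.73% of all genes. Groups did not overlap for 0 members with TTR REVERSIR lower and 0 with it higher, against 5.76% and 5.09% of all genes. The log2 ratio of the family sums was 0.034 with siRNA present and 0.0084 without it.

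Genes of pathways known to act on Mup transcription, or with a like sex bias, were read in the same fits. Of 14 measured genes of growth hormone and STAT5 signalling, 0 were called by edgeR in any comparison with PBS. DESeq2 called Ghr in each of these comparisons but that of scrambled REVERSIR. An unadjusted p under 0.05 was found for 2 to 4 of the 14 genes. Of all 11153 genes 1636 to 2241 had one, the background for the later lists too. No share of all genes called by DESeq2 is given, so its calls in these lists stand without a background. The list's medians were −0.071 to 0.025, against −0.0060 to 0.0029 for all genes. With siRNA against PBS the growth hormone receptor gene Ghr was at −0.31 ± 0.087, adjusted p = 0.052, and Igfals, which encodes a subunit of the complex that carries IGF1 in plasma, at 0.32 ± 0.12, adjusted p = 0.137. Of 23 hepatocyte transcription factor genes, Onecut2 was lower with siRNA (−0.35 ± 0.092, adjusted p = 0.0411) by edgeR, which called no other against PBS, and DESeq2 called Onecut2 and the glucocorticoid receptor gene Nr3c1 with siRNA. The edgeR call of Onecut2 was lost without PBS replicates 1 or 2, siRNA replicates 1, 2 or 3, scrambled REVERSIR replicate 3, TTR REVERSIR replicate 3 or siRNA + scrambled REVERSIR replicates 2 or 3, each left out alone (adjusted p 0.0509 to 0.28), and against PBS replicate 3 alone the value was −0.33. Against PBS, 3 to 7 of the 23 had an unadjusted p under 0.05, and the list's medians were −0.024 to 0.050. Zhx2, a zinc finger regulator of several liver genes, held 0 counts in all libraries.

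Of 20 measured genes with higher expression in male liver, the glucuronosyltransferase gene Ugt2b1 was lower with siRNA (−0.37 ± 0.090, adjusted p = 0.0288) and with scrambled REVERSIR (−0.48 ± 0.10, adjusted p = 0.036), by edgeR, which called 0 higher. DESeq2 called Ugt2b1 in each comparison with PBS but siRNA + TTR REVERSIR, C8b with siRNA and with siRNA + TTR REVERSIR, and Slco1a1 with siRNA + scrambled REVERSIR. The call of Ugt2b1 with siRNA was lost without PBS replicates 1 or 2 or siRNA replicates 1, 2 or 3, each left out alone (adjusted p 0.0761 to 0.299), and against PBS replicate 3 alone the value was −0.048. The call of Ugt2b1 with scrambled REVERSIR was lost without PBS replicates 1 or 2, siRNA replicate 3, scrambled REVERSIR replicates 1, 2 or 3, TTR REVERSIR replicate 3, siRNA + scrambled REVERSIR replicates 2 or 3 or siRNA + TTR REVERSIR replicates 2 or 3, each left out alone (adjusted p 0.0504 to 0.22), and against PBS replicate 3 alone the value was −0.16. Against PBS, 3 to 6 of the 20 had an unadjusted p under 0.05, and the medians of the list ran over −0.12 to −0.045. Of the genes with higher expression in female liver, 6 of 23 passed the filter, and 0 were called by edgeR or DESeq2, with 0 to 1 at an unadjusted p under 0.05. With siRNA against PBS, Lifr was at −0.12 ± 0.066, adjusted p = 0.319 and Cyp2c40 at −0.55 ± 0.41, adjusted p = 0.481. Of 8 other lipocalin genes of the liver, the acute phase gene Orm2 was lower with TTR REVERSIR by edgeR (−0.39 ± 0.083, adjusted p = 0.0357), and was at −0.25 ± 0.082, adjusted p = 0.0929 with siRNA. The call was lost without PBS replicates 1 or 2 or TTR REVERSIR replicates 1 or 3, each left out alone (adjusted p 0.164 to 0.26), and against PBS replicate 3 alone the value was −0.16. DESeq2 called Orm2 in each comparison with PBS but siRNA, and Lcn2 in all those with a REVERSIR but scrambled REVERSIR alone. Against PBS, 2 to 3 of the 8 lipocalin genes had an unadjusted p under 0.05, with medians of −0.13 to −0.049. Rbp4, the plasma carrier of retinol, was at −0.30 ± 0.13, adjusted p = 0.188 with siRNA.

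Of 12 hepatocyte marker genes, 3 to 5 had an unadjusted p under 0.05 against PBS, and the list's medians were −0.14 to −0.033. By edgeR 1 was called, Serpina1c, which encodes an alpha-1 antitrypsin and belongs to another family of similar copies. It was lower in each comparison with PBS, at −0.61 ± 0.13, adjusted p = 0.0215 with siRNA, −0.68 ± 0.13, adjusted p = 0.0283 with scrambled REVERSIR, −0.61 ± 0.13, adjusted p = 0.0357 with TTR REVERSIR, −0.62 ± 0.13, adjusted p = 0.0319 with siRNA + scrambled REVERSIR and −0.55 ± 0.13, adjusted p = 0.0494 with siRNA + TTR REVERSIR. Serpina1c measured 859, 889 and 910.3 CPM with siRNA, 885, 796 and 847 with scrambled REVERSIR, 895, 798 and 963 with TTR REVERSIR, 916, 863 and 862 with siRNA + scrambled REVERSIR, 978, 875 and 907 with siRNA + TTR REVERSIR, and 1595, 1576 and 877 in PBS. As for Mup9, PBS replicates 1 and 2 stood above all others and PBS replicate 3 lay in the treated range. DESeq2 called Serpina1c in each comparison with PBS, and besides it Hp with siRNA, Cyp2e1 with scrambled REVERSIR, Fgb with siRNA + scrambled REVERSIR, and Apob, Fgb and Asgr1 with siRNA + TTR REVERSIR. The call with siRNA was lost without PBS replicates 1 or 2 or siRNA replicates 1, 2 or 3, each left out alone (adjusted p 0.0598 to 0.207), and against PBS replicate 3 alone the value was 0.022. The call with scrambled REVERSIR was lost without PBS replicates 1 or 2 or scrambled REVERSIR replicates 2 or 3, each left out alone (adjusted p 0.137 to 0.22), and against PBS replicate 3 alone the value was −0.055. The call with TTR REVERSIR was lost without PBS replicates 1 or 2 or TTR REVERSIR replicates 1 or 3, each left out alone (adjusted p 0.164 to 0.26), and against PBS replicate 3 alone the value was 0.021. The call with siRNA + scrambled REVERSIR was lost without PBS replicates 1 or 2 or siRNA + scrambled REVERSIR replicates 1, 2 or 3, each left out alone (adjusted p 0.072 to 0.324), and against PBS replicate 3 alone the value was 0.012. The call with siRNA + TTR REVERSIR was lost without PBS replicates 1 or 2, siRNA replicates 1, 2 or 3, scrambled REVERSIR replicates 1, 2 or 3, TTR REVERSIR replicate 3, siRNA + scrambled REVERSIR replicates 1, 2 or 3 or siRNA + TTR REVERSIR replicates 1, 2 or 3, each left out alone (adjusted p 0.0532 to 0.403), and against PBS replicate 3 alone the value was 0.076.

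Within 1 Mb of the cluster or between its members lay 61 other genes, of which 19 were measured. None was called against PBS by edgeR or DESeq2, and 0 to 2 had an unadjusted p under 0.05. With siRNA against PBS, Alad, an enzyme of heme synthesis, was at 0.36 ± 0.15, adjusted p = 0.186 and Ptgr1, a prostaglandin reductase gene, at 0.35 ± 0.16, adjusted p = 0.232. Of markers of other liver cells, 0 were called by edgeR against PBS: 5 measured for Kupffer cells and macrophages, 5 for liver endothelium, 5 for stellate cells and fibroblasts and 4 for cholangiocytes, with 0 to 1, 0, 0 to 1 and 1 to 3 at an unadjusted p under 0.05. DESeq2 called 1 in the stellate list with siRNA and 0 elsewhere. With siRNA against PBS the values with the smallest p in each list were those of the macrophage gene C1qb (1.12 ± 0.40, adjusted p = 0.116), the endothelial Cdh5 (−0.50 ± 0.46, adjusted p = 0.585), the stellate Reln (−0.28 ± 0.080, adjusted p = 0.0579) and the cholangiocyte Spp1 (1.75 ± 0.51, adjusted p = 0.0619). In the comparisons without PBS, edgeR called 0 genes of any of these lists.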

How the data were processed

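The deposited files hold raw read counts per gene for 18 libraries, whole numbers with no normalization by the authors. STAR, DESeq2 and the build NCBIM37 are named in the submitters' processing notes without versions. No label names the counting tool, its strand setting or its treatment of reads with several matches. The authors also deposited 5 tables of treatments against PBS for 18218 genes, with a mean signal, a log2 fold change and its standard error on the log2 scale, a Wald score, and p-values with adjusted values.

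Genes were kept by filterByExpr of edgeR 4.0.16 (R 4.3.3), which left 11153. All 18 libraries entered 1 quasi-likelihood fit with TMM scaling and the group as the only term, with 12 residual degrees of freedom, with Benjamini-Hochberg adjustment across the 11153 genes in each of 9 comparisons. Standard errors come from the F statistic. The family sum is the sum of CPM over 43 members, compared as a log2 ratio of group means with no test. DESeq2 1.42.0 and other settings were alternatives, and the scripts were tested on simulated data. Gene types, positions and coding sequences came from the annotation of NCBIM37, where 37205 identifiers matched, with 49 more named from the deposited tables. Promoter sequences came from RefSeq, where 17 Mup genes matched.

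Named were every Mup gene, with library values for protein-coding members past the filter and pseudogenes past the threshold, and from each other list at most 3 called members per comparison, those of smallest p, and failing that at most 2, for siRNA against PBS. Members and lists were chosen with earlier results of these data known. Libraries were grouped by sample titles, and no pair of libraries within a group differed by less than sampling noise (pairs across groups were not compared).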

Additional observations from a re-analysis of the deposited data

How the results depend on the processing

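Size factors by relative log expression, removal of mitochondrial ribosomal RNA counts and the replicate block kept each count of members called against PBS. With no filter on low counts the counts against PBS were 9 with siRNA and 5 with either combination of siRNA and a REVERSIR, where 3.37%, 2.81% and 2.92% of all genes were called. DESeq2 called 1 for TTR REVERSIR and 0 for siRNA + scrambled REVERSIR, with no adjusted p for 3 and 2 of the genes otherwise called. The compared groups fitted alone gave 0 in each comparison with PBS, with no share of all genes given for those fits. Leaving out 1 library gave 0 to 11 members with siRNA, 0 to 8 members with scrambled REVERSIR, 0 to 7 members with TTR REVERSIR, 0 to 7 members with siRNA + scrambled REVERSIR and 0 to 8 with siRNA + TTR REVERSIR against PBS. The replicate block gave 5 members with siRNA, 3 with scrambled REVERSIR, 4 with TTR REVERSIR, 2 with siRNA + scrambled REVERSIR and 2 with siRNA + TTR REVERSIR against PBS. Same-numbered deviations correlated at −0.15 to 0.29, with 6 of 45 pairs over 0.1. Those of other numbers correlated at −0.30 to 0.22, with 10 of 90 pairs over 0.1. Whether equal numbers mark a shared origin cannot be told from these values. With library totals alone the log2 ratios of the family sum to PBS were 0.064, 0.088, 0.11, 0.15 and 0.19 in the same order, and 0.058 for siRNA + scrambled REVERSIR against scrambled REVERSIR. Without PBS replicates 1 and 2 the ratios to PBS were −0.11, −0.061, −0.050, −0.028 and 0.0071. Without Mup3 the ratio of TTR REVERSIR to scrambled REVERSIR was −0.018. Leaving out 1 library gave ratios of −0.32 to −0.18, −0.27 to −0.13, −0.26 to −0.12, −0.23 to −0.091 and −0.20 to −0.058 to PBS in the same order. Of the 18 gene values rerun (the 16 calls, and Mup3 and Mup10 for siRNA), those that changed sign were Mup20 (0.053), Mup3 (0.064) and Mup10 (0.12) for siRNA against PBS with library totals alone, and Mup16 (0.033) for siRNA + scrambled REVERSIR without PBS replicates 1 and 2. Counted over all 21 members, library totals alone changed the sign of 11, 8, 10, 12 and 14, in the same order. Over 461 reruns of those values, 307 kept their side of the threshold, 144 lost the call, 6 gained it and 4 changed sign. Apart from what the settings themselves remove, the cause was not tested. Limits: depth leaves Mup11, Mup13, Mup5, Mup19, Mup2, Mup6 and both pseudogenes on few counts. Reads of near-identical copies cannot be assigned with certainty. Comparisons with PBS share its 3 libraries and are not independent of each other.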
